A study of Mus musculus with 4 samples.

Results

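The regions described here are 159 clusters of neighbouring CpGs whose methylation stood higher in mouse embryonic fibroblasts that had divided more than 3 times in doxycycline than in any of 3 other libraries. A cluster was a run of at least 3 CpGs, with 10 reads or more at each of them in every one of the 4 libraries and with neighbours at most 100 bp apart. Its methylation level was the methylated reads summed over its CpGs as a percentage of all reads summed over them. Of 99566 clusters in the series, 76115 lay on the 19 autosomes with at least 100 summed reads in every library and are called eligible here. The 159 members were chosen by these levels: each had to stand at least 10 percentage points above the highest of control, 0-division and 1-division cells. That excess over the highest of the other 3 libraries is called the margin. The levels and margins below are therefore a description of what the choice returned and carry no test.

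Reduced representation bisulfite sequencing (RRBS) was applied to secondary fibroblasts of a 129/SvJ x C57/B6 hybrid background that carry reprogramming factors under doxycycline control. Control cells were left uninduced, and the other 3 groups were kept for 96 hours in doxycycline and were labelled by their mean division number, 0, 1 or more than 3; for the last cohort the tag reads >3 and the description 3 or more. The labels name media with 10%, 15% and 0.5% serum without tying the starvation medium to a cohort, so serum and division number cannot be told apart. Each group was 1 library, so there is no spread between replicates, and a difference is one between libraries. The 4 libraries held 84606824 to 94775128 reads summed over CpGs, with a median coverage of 24 to 35 reads per listed CpG. The share of methylated reads was 43.5% to 44.6% in the first 3 libraries and 26.0% in the >3-division library. That share also moves with where the reads fall: the >3-division library held 1.58 times the mean reads of the other 3 at the median in eligible clusters under 10% in control, and 0.751 times in those at 80% or more. Over all eligible clusters the median level was 63.5% in control and 54.3% in >3-division cells. By band of control level, the median change per cluster ran from -0.221 points (under 10%) to -7.42 points (40% to 60%). The members went the other way. Intervals are 95% Wilson intervals. They cover counting error only and are too narrow, because a read that spans several CpGs was counted at each of them.

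Cytosine methylation at CpGs is copied to the new DNA strand at each division by the maintenance methyltransferase, while other methyltransferases can add it at sites that lacked it. Most CpGs outside CpG islands are methylated in fibroblasts, and islands at gene starts are mostly free of methylation. Regions at an intermediate level hold a mixture of methylated and unmethylated molecules, which may lie in different cells, on different alleles or at different CpGs. In reprogramming, methylation at pluripotency gene promoters is known to be lost late.

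To set members beside genes, RefSeq promoter sequences (GRCm38.p6, 300 bases each) were placed on the deposited mm9 positions by the spacing of their CpGs alone, with no conversion of coordinates. Of 31396 autosomal promoter sequences, 9289 from 8216 genes found a place. Chromosomes with placed promoters held 148 of the 159 members. On a placed promoter window lay 5 of these 148 (3.38%), against 11.4% of 73772 eligible clusters on the same chromosomes and 1.42% of those between 20% and 80% in control. The stretches of these 5 promoters that hold member CpGs are shown here because they are the members whose sequence could be read; capitals mark the CpGs that belong to the member, 5′ to 3′ on the gene's strand. They lie at chr2:90783203-90783267 (Agbl2, plus strand), chr2:9881029-9881275 (4930412O13Rik, plus strand), chr8:123186164-123186249 (Dpep1, plus strand), chr8:70487341-70487459 (Tmem59l, minus strand) and chr19:40659613-40659738 (Entpd1, plus strand), all on GRCm38.p6.
Agbl2: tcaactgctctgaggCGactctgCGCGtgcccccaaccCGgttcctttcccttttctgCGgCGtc
4930412O13Rik: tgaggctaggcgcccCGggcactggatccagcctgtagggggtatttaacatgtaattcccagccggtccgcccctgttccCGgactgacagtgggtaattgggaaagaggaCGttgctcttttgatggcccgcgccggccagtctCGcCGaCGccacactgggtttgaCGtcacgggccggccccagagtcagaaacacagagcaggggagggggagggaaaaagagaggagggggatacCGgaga
Dpep1: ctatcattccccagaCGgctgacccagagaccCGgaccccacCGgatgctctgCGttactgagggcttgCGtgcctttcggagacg
Tmem59l: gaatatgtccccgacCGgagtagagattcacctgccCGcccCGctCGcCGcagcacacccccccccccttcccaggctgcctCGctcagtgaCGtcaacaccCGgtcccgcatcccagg
Entpd1: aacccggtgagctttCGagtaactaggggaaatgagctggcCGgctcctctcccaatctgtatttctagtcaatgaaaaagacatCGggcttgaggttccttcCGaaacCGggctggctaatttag

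The other 11 members lie on chromosome 18, which was not analysed for gene starts here. The Agbl2, Tmem59l and Entpd1 windows held every CpG of their member, the 4930412O13Rik window held 8 of 13 and the Dpep1 window 5 of 6. MspI, the enzyme of RRBS, cuts at CCGG, which reads the same on both strands. The 5 windows held from 2 (Dpep1) to 6 (4930412O13Rik) such sites over their full 300 bases, where 33.1% of all autosomal promoter windows hold at least 2. Only windows with CpGs covered by RRBS could be placed, so the presence of such sites is not a trait of the members. Positions of members are given below on mm9 as deposited, where they count from 0. Where 4 levels follow each other, they are those of control, 0-division, 1-division and >3-division cells, in this order.

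Most members were partly methylated in control cells. From control to >3-division cells their median levels were 45.6%, 46.9%, 45.5% and 62.0%. In control they ranged from 1.16% to 80.9%, and 136 of 159 lay between 20% and 80%. Among all eligible clusters 36.0% were under 10% and 38.7% at or over 80% in control, where the members numbered 10 and 1. The rise from control was 10.2 to 27.3 points with a median of 13.9 points. The other 3 libraries lay close together in most members: their levels spanned 5 points or less in 88 members and more than 10 points in 14. The highest of the 3 was control in 52 members, the 0-division library in 56 and the 1-division library in 51, so no one of them set the margin.

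**Figure D1:**
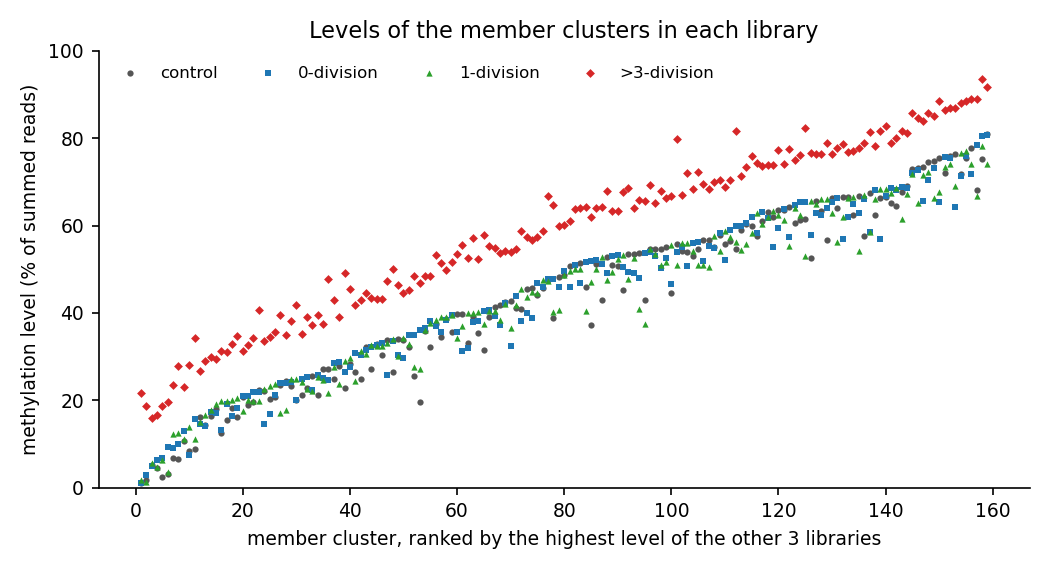
Methylation level (percent of summed reads, y axis) of the 159 members in each of the 4 libraries, ranked by the highest level of the 3 other libraries. The red diamonds of the >3-division library lie above the other points by construction, with a median margin of 11.8 points, over starting levels from near 0% to 80.9%.

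Margins were small for most members. The median was 11.8 points, 22 members reached 15 points and 4 reached 20 points. The median half-width of a margin's 95% counting interval (Newcombe's method from Wilson bounds) was 7.65 points. In 102 of the 159 the interval of the >3-division level lay wholly above those of the other 3 libraries; over all eligible clusters, with no minimum margin, 0.335% did so. The 3 members nearest to the limit were on chromosome 13 at 31405343 and at 40829961 and on chromosome 4 at 120340257, with margins of 10.0, 10.1 and 10.0 points. Just outside it, clusters on chromosome 18 at 41106126, chromosome 17 at 63255099 and chromosome 12 at 34135603 stood at 59.5%, 76.5% and 92.9% in the >3-division library, and at 49.5%, 66.5% and 82.9% in the highest of the other 3.

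Rises of this size were not particular to the >3-division library. Its 159 members are 0.209% of the eligible clusters. The same rule returned 79 clusters with control highest (0.104%), 81 with the 0-division library highest (0.106%) and 113 with the 1-division library highest (0.148%). In the other direction, the >3-division library stood at least 10 points below the lowest of the other 3 in 5647 clusters (7.42%). The median margin was 11.6 points in the control list, 11.9 points in the 0-division list and 11.5 points in the 1-division list, and 3 clusters of the 0-division list also reached 20 points. Which library led the count depended on how reads were weighted. With equal weight for every CpG of a cluster the counts were 108 for the >3-division, 154 for the 1-division, 115 for the 0-division and 83 for the control library. With the same CpG weights in all libraries they were 94, 109, 65 and 75, and with every CpG thinned to the same depth in all libraries 119, 154, 108 and 142, in that order. The >3-division library thus led with summed reads, and the 1-division library led under each of these 3 alternatives. With summed reads and at least 200 of them in every library, the counts were 72, 38, 27 and 24 in the same order. The part of counting error in these orders was not tested.

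**Figure D2:**
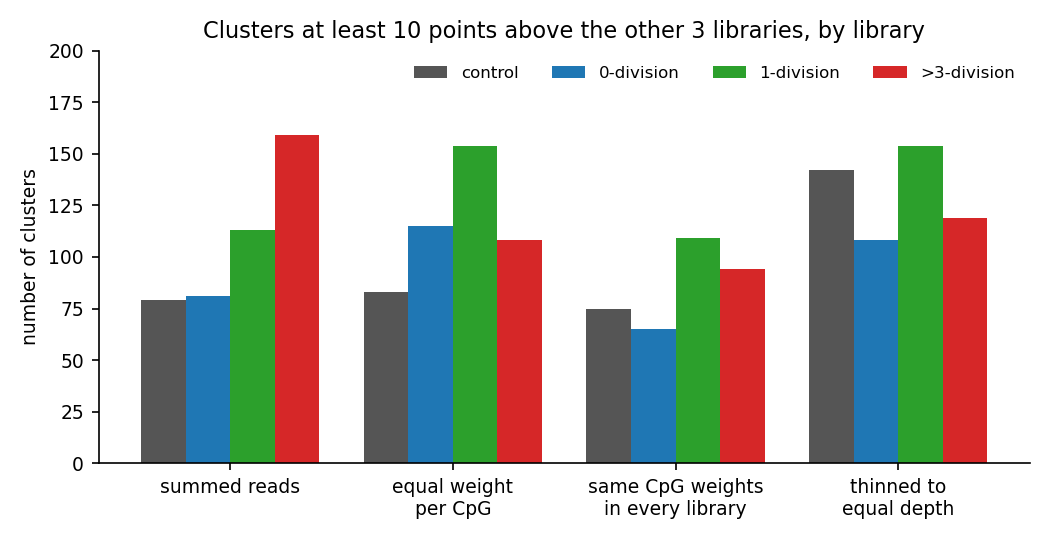
Number of eligible clusters standing at least 10 points above the other 3 libraries, by the library that is highest (colours), under 4 ways of computing the level. The >3-division bar is tallest with summed reads (159) and the 1-division bar is tallest in the other 3 sets (154, 109 and 154).

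For part of the members the margin depended on how reads were spread over the CpGs. With the same CpG weights in every library (reads pooled over the 4 libraries), 86 of 159 kept a margin of at least 10 points, 31 fell under 5 points and 9 were at or below 0. With equal weight per CpG, 79 kept 10 points, 65 lay between 0 and 10 and 15 were at or below 0. Among the clusters where another library was highest, the share that kept 10 points with the same weights was 77.2% for control, 71.6% for the 0-division and 78.8% for the 1-division library, against 54.1% for the members. Margins of at least 10 points under all 3 weightings, with intervals apart, were found in 55 members, and in 26 clusters of the control list, 27 of the 0-division list and 46 of the 1-division list. Of the 10 members with the largest margin 9 were among these 55. Seen CpG by CpG, 569 of the 809 member CpGs (70.3%) were highest in the >3-division library, against 17.8% of the CpGs in eligible clusters between 20% and 80% in control. A higher share in members follows from the choice, which used the summed reads of these same CpGs. Every CpG was highest in that library in 43 members, and every CpG by at least 10 points in 6.

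**Figure D3:**
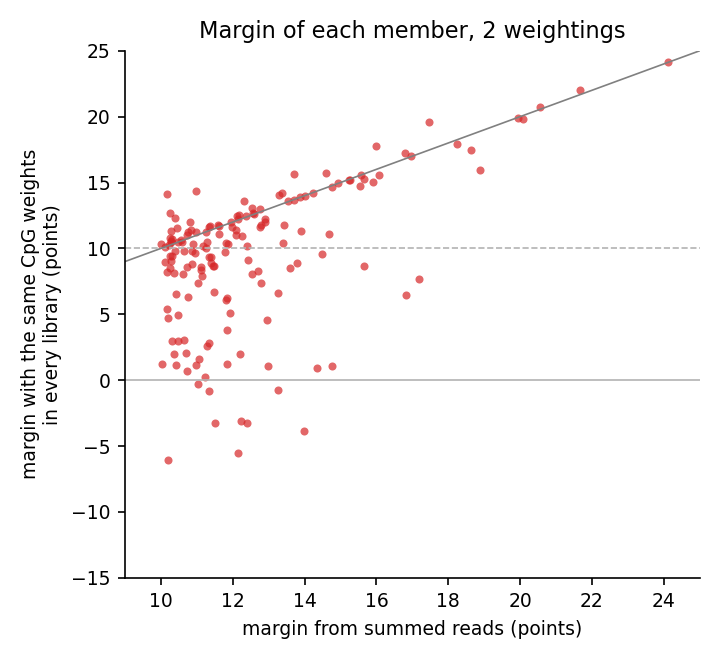
Margin of each member computed from summed reads (x axis, points) against the margin with the same CpG weights in every library (y axis, points); the solid diagonal marks equal values, the dashed line 10 points and the grey line 0. Points under the dashed line are the members that missed 10 points with fixed weights, 9 of them at or below 0.

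The member at the start of 4930412O13Rik, a long non-coding RNA gene, showed this most plainly among the promoter members. It held 13 CpGs over 333 bp on chromosome 2 from 9802670 to 9803002 and read 50.9%, 50.9%, 50.1% and 63.9%. Its CpGs differed widely from each other: at 9802987 control read 90.7% and the >3-division library 96.1%, while at 9803002 they read 13.3% and 14.3%. The CpG at 9802987 was covered by 43, 16, 25 and 77 reads in the 4 libraries in that order, and the one at 9802736 by 98, 70, 63 and 64. The 4 CpGs from 9802970 to 9802987, all at 69.8% or more in control, were the deepest of the cluster in the >3-division library and not in the other 3. The margin was 13.0 points with summed reads, 1.11 points with the same weights and -3.12 points with equal weight per CpG. Tmem59l, which encodes a transmembrane protein, had a like member of 8 CpGs just upstream of its start (chromosome 8 from 73011254 to 73011341). It read 54.2%, 55.1%, 56.0% and 67.0%, and its margin of 11.1 points was 1.58 points with the same weights.

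At the start of Agbl2, a carboxypeptidase that trims glutamate from tubulin, the rise was shared by the well-covered CpGs. This member, 6 CpGs within 47 bp on chromosome 2 from 90623374 to 90623420, stood at 20.2% of 693 reads, 20.1% of 856, 24.8% of 794 and 41.8% of 1173 (39.0% to 44.6%). In the printed sequence the first CpG read 27.0%, 27.9%, 28.0% and 52.0%. The fourth read 11.3%, 10.5%, 14.3% and 24.1%. Only the fifth, on 29 reads or fewer, was not highest in the >3-division library. The margin was 17.0 points with summed reads and with the same weights, and 15.3 points with equal weight. It was 6.49 points when CpGs up to 200 bp apart were joined into 1 cluster.

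Dpep1, a membrane dipeptidase, and Entpd1, an ectonucleotidase that breaks down extracellular ATP and is also called CD39, were the other promoter members. The Dpep1 cluster (chromosome 8 from 125710078 to 125710212) stood at 19.6%, 21.9%, 19.8% and 34.3% of 1005 reads. Its margin was 12.4 points, or 9.09 points with the same weights. At Entpd1 (chromosome 19 from 40734117 to 40734211) the levels were 16.3%, 14.7%, 15.0% and 26.7%, with a margin of 10.4 points that was 6.57 points with the same weights. Of the 5 promoter members, only that of Agbl2 kept 10 points under each of the 3 weightings.

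**Figure D4:**
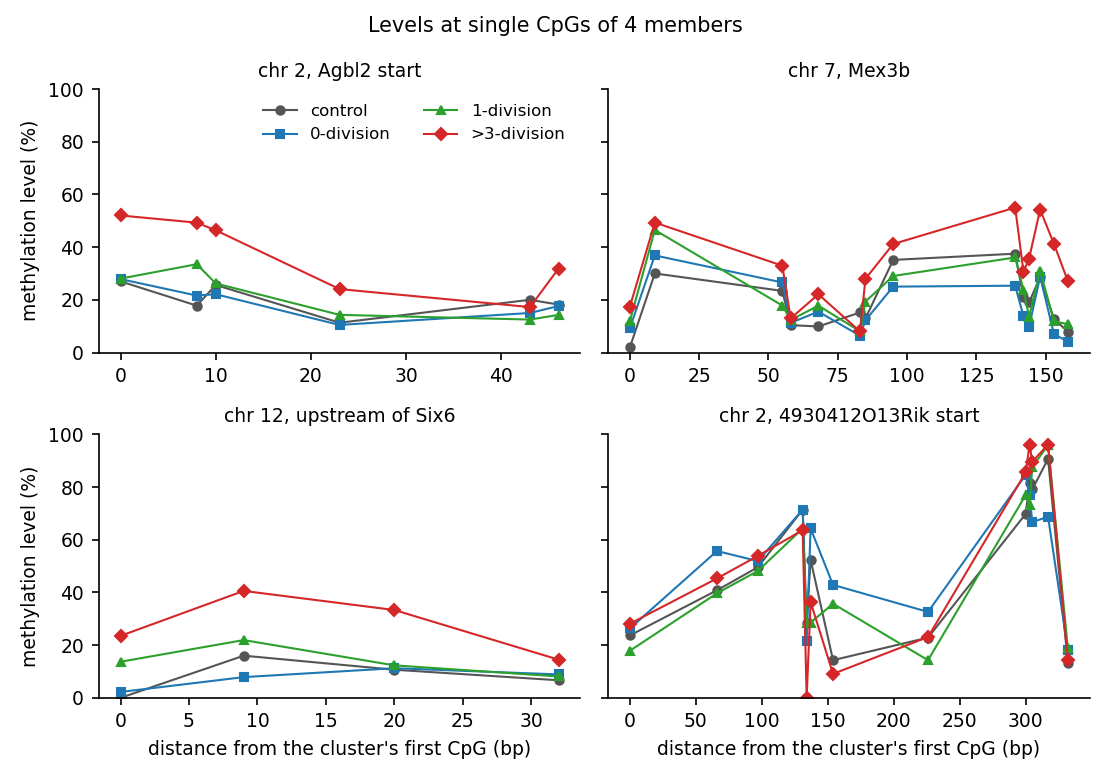
Methylation level (percent, y axis) at each CpG of 4 members against distance from the member's first CpG (bp, x axis), in the 4 libraries. At Agbl2, Mex3b and upstream of Six6 the >3-division line lies above the others at most CpGs; at 4930412O13Rik, where the margin is -3.12 points with equal weight, the 4 lines cross.

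The largest margins lay away from placed gene starts or inside genes. On chromosome 8 from 74556617 to 74556638, 3 CpGs stood at 55.7% of 271 reads, 53.8% of 117, 51.0% of 157 and 79.8% of 258 (74.5% to 84.3%), a margin of 24.1 points that was 11.4 points with joining at 200 bp. All 3 CpGs were highest in the >3-division library, and the nearest placed start, that of Zfp961, was 81653 bp away. In Sh3bp5, which encodes a regulator of the JNK kinase, a member 3509 bp downstream of the start read 54.5%, 59.9%, 56.2% and 81.5%. Its margin was 21.7 points (chromosome 14 from 32245696 to 32245776).

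Lower starting levels appeared in the next members. On chromosome 1 from 174322515 to 174322609 the levels were 27.3%, 24.7%, 21.7% and 47.8%, and in the body of Atxn7l1 (chromosome 12 from 33847495 to 33847574) they were 22.8%, 26.6%, 29.0% and 49.1%. All 4 CpGs were highest in the >3-division library in each. The margin on chromosome 1 was 20.5 points, or 11.1 points with joining at 200 bp. In Tnfaip2, a gene induced by tumour necrosis factor, the member 3570 bp downstream of the start (chromosome 12 from 112684441 to 112684508) was flat at 47.4%, 47.8% and 47.4% and stood at 66.7% of 138 reads in the >3-division library. The margin of 18.9 points was 12.7 points with equal weight. In Dse, an epimerase of dermatan sulfate synthesis, the 6 CpGs on chromosome 10 from 33906493 to 33906581 read 8.94%, 15.7%, 11.1% and 34.4%.

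Of the remaining 4 of the 10 largest margins, that on chromosome 9 is described with the nearly unmethylated members, and 1 of the other 3 was under 10 points with the other weightings. Levels on chromosome 1 from 188749449 to 188749505 were 22.4%, 22.0%, 19.9% and 40.7%, and on chromosome 13 from 24228006 to 24228092 they were 31.5%, 40.5%, 37.4% and 57.9%. The cluster on chromosome 18 from 15229962 to 15230038 read 39.0%, 37.9%, 39.9% and 57.1%. Its margin of 17.2 points was 7.68 points with the same weights and 5.57 points with equal weight.

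A small set of 6 members was nearly unmethylated in the other 3 libraries, with each of the 3 under 10%. The largest margin among them was on chromosome 9 from 61253186 to 61253216, where 3 CpGs stood at 1.16% of 173 reads, 1.20% of 333, 1.75% of 228 and 21.7% of 258 (17.1% to 27.1%). Its CpGs did not rise alike: at 61253186, 61253192 and 61253216 the >3-division levels were 3.70%, 41.5% and 20%. On chromosome 4 from 129472605 to 129472635 the levels were 1.72%, 3.03%, 1.37% and 18.6%, and all 3 CpGs were highest in the >3-division library.

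Others of this low set started slightly higher. In the body of Trio, a member on chromosome 15 from 27927390 to 27927519 read 2.56% of 429 reads, 6.78%, 6.43% and 18.6% of 692 reads. On chromosome 14 from 55062689 to 55062716 the levels were 5.23%, 5.09%, 5.57% and 16.1%, and the margin of 10.5 points was -4.92 points with joining at 200 bp. The longest of the set lay on chromosome 6 from 28782744 to 28783018 and spread a low rise over 23 CpGs. It stood at 4.51% of 1575 reads, 6.39% of 1440, 4.82% of 1700 and 16.7% of 2556 (15.3% to 18.2%), with 20 of 23 CpGs highest in the last. The rise was uneven there too: the CpG at 28783015 stood at 7.95%, 11.6%, 8.60% and 46.8%, and its neighbour at 28783018 at 4.71%, 2.30%, 5.38% and 4.41%.

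The deepest and longest members had margins between 10.3 and 13.4 points. In Mex3b, which encodes an RNA-binding protein, 14 CpGs 2399 bp downstream of the start (chromosome 7 from 90018241 to 90018399) stood at 18.2% of 1015 reads, 16.5% of 976, 20.02% of 904 and 32.8% of 1509. The >3-division library was highest at 13 of the 14, and the margin of 12.8 points was 11.8 points under both other weightings. On chromosome 11 from 94352548 to 94352737, 23 CpGs read 32.1%, 34.9%, 32.9% and 45.2% on at least 1309 reads each, with a margin of 10.3 points that was 12.7 points with the same weights. In Antxr2, a receptor for anthrax toxin and collagen, 21 CpGs (chromosome 5 from 98364528 to 98364775) read 45.8%, 45.9%, 47.6% and 58.9%. The margin there was 10.1 points with the same weights and 8.17 points with equal weight.

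Margins of long members differed in how far they depended on the weights. The 22 CpGs on chromosome 7 from 143045202 to 143045456 read 23.3%, 24.3%, 24.8% and 38.2%, with 12 of the 22 highest in the last. Its margin of 13.4 points was 10.4 points with the same weights and 10.1 points with equal weight. On chromosome 5 from 118886800 to 118887039 the levels of 44.2%, 46.8%, 44.5% and 57.4% gave a margin of 10.6 points that was 4.03 points with equal weight.

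Within 1 kb of a placed gene start lay 11 of the 148 members (7.43%), against 20.5% of eligible clusters and 4.08% of eligible clusters between 20% and 80% in control. Only 3 of the 11 kept 10 points under both other weightings: those of Agbl2, Hic1 and Npnt. Hic1, a transcriptional repressor whose gene is a known target of methylation in tumours, had its member 907 bp downstream of the start (chromosome 11 from 74980701 to 74980746). It stood at 33.8%, 25.7%, 33.2% and 47.3% on 211 to 427 reads, and its margin of 13.6 points was 3.89 points with joining at 200 bp. Its 68 flanking CpGs within 1 kb averaged 38.3%, 42.7%, 40.7% and 48.6%. Npnt encodes the matrix protein nephronectin, and its member (chromosome 3 from 132612194 to 132612224) read 33.8%, 29.7%, 34.3% and 44.6% with all 5 CpGs highest in the >3-division library, while its 42 flanking CpGs averaged 4.64%, 5.85%, 5.01% and 2.92%.

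Other members by gene starts missed 10 points under at least 1 weighting. Tricellulin, a protein of cell junctions, is encoded by Marveld2, whose member 252 bp into the gene (chromosome 13 from 101386560 to 101386646) read 45.2%, 50.6%, 53.3% and 67.8%. Its margin of 14.5 points was 9.61 points with the same weights. Tfap2a, a transcription factor of neural crest and epidermis, had 5 CpGs 244 bp into the gene (chromosome 13 from 40829961 to 40830044) at 10.6%, 13.0%, 11.1% and 23.1%. All 5 CpGs were highest in the >3-division library there.

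The Lin7b member is the one where the other 3 libraries spread most among those near a start. Lin7b encodes a scaffold protein of cell polarity, and the levels (chromosome 7 from 52625379 to 52625426) were 19.6%, 36.1%, 27.3% and 46.9%. Its margin of 10.9 points was -4.21 points with joining at 200 bp. In the body of Glis1, a zinc finger transcription factor known to promote reprogramming when supplied with other factors, a member at -567 bp from the start of Gm46866 (chromosome 4 from 107108426 to 107108601) read 48.1%, 45.9%, 40.6% and 59.9%. Its margin of 11.8 points was 6.08 points with the same weights, and its 41 flanking CpGs averaged 4.44%, 5.80%, 5.98% and 4.50%.

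Lists of genes for 7 themes were set beside the members, counting a cluster when it lay within 5 kb of a placed start or in the gene's body. Genes of pluripotency, of fibroblast and mesenchymal identity, of epithelium, of imprinting, of the cell cycle and senescence, and of DNA methylation and chromatin held 0 members, near which 34, 62, 23, 73, 57 and 79 eligible clusters lay. The background of 0.209% amounts to less than 1 cluster in each of these lists, and only 6 of 35 pluripotency genes had a placed start. The list of Hox and developmental transcription factors, with 44 of 121 genes placed, had 4 members near 3 genes among 399 eligible clusters, or 10.0 per 1000. Members per 1000 eligible clusters also reached 13.3 and 13.2 at 20% to 40% and 40% to 60% in control. The control levels of the clusters near listed genes were not compared. These are descriptions of small counts, with no test.

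Upstream of Six6, a homeobox gene of eye and pituitary development, 2 members lay side by side. Distances from the start are negative upstream. The first, 4 CpGs at -2176 bp (chromosome 12 from 74038660 to 74038692), stood at 8.33%, 7.54%, 14.0% and 28.0% of 275 reads (23.0% to 33.6%). The second, at -1865 bp (chromosome 12 from 74038902 to 74039003), read 6.91%, 9.21%, 12.4% and 23.5%. In both the 1-division level lay above the 0-division level and below the >3-division level. The CpG at 74038984 of the second stood at 14.4%, 17.8%, 20% and 41.6%, and that at 74038902 at 3.54%, 2.78%, 5.06% and 2.47%, so the second member's rise was not shared by its first CpG.

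Six2, a homeobox gene of kidney progenitors, had a member at -4407 bp from its start, within CJ186046Rik (chromosome 17 from 86092000 to 86092118). Its 9 CpGs stood at 37.6% of 524 reads, 36.9% of 585, 38.4% of 536 and 53.2% of 1019 (50.1% to 56.2%), and the margin was 14.6 points or more under all 3 weightings. The >3-division library was highest at 8 of the 9. Its 13 flanking CpGs averaged 48.8%, 55.2%, 52.6% and 47.2%, without such a rise. Gata3, a zinc finger factor of T cells and several epithelia, came into the list through the 4930412O13Rik member at -2444 bp from its start, whose margin was -3.12 points with equal weight.

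Members rarely lay together. Their median distance to the next was 5101340 bp, and 6 members lay within 5 kb of another, in 3 pairs. One pair is that upstream of Six6. On chromosome 5 the members at 111848218 and 111849719 read 25.7%, 35.0%, 27.6% and 48.4%, and 52.6%, 58.0%, 65.6% and 76.6%. With joining at 200 bp the margin of the first was -0.128 points. On chromosome 18 the members at 7001521 and 7002304 read 19%, 21.1%, 20.1% and 32.7%, and 41.4%, 39.4%, 40.4% and 55.0%. By chromosome the members numbered from 0.871 per 1000 eligible clusters on chromosome 17 to 4.69 on chromosome 18 and 4.12 on chromosome 13.

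In size the members were close to other partly methylated clusters. A larger share of them was CpG-dense than of those clusters, and a smaller share than of all eligible clusters. Their median was 4 CpGs over 82 bp with 5 CpGs listed within 100 bp on either side of a CpG, against 4 CpGs, 92 bp and 5 for eligible clusters between 20% and 80% in control. By that count 34.0% were CpG-poor (at most 4) and 10.1% CpG-dense (at least 12), against 37.4% and 5.46% of those clusters. Over all eligible clusters the shares were 19.6% and 25.3%. The members include 10 under 10% and 12 from 10% to 20% in control, levels that the partly methylated clusters leave out. Members per 1000 eligible clusters were 0.365 under 10% in control, 4.77 from 10% to 20%, 13.3 from 20% to 40%, 13.2 from 40% to 60%, 4.22 from 60% to 80% and 0.0339 above. By the rule a cluster near 100% in control cannot be a member, and the part of this limit in the rates was not tested. The 1-division list followed the level as well, with 0, 13, 35, 41, 23 and 1 clusters in the same bands.

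Depth moved with membership in 2 ways. Clusters whose shallowest library held 100 to under 200 reads gave 3.71 members per 1000, those with 400 to under 800 reads 1.45 and those with 800 or more 0.280. For the 1-division list the rates were 3.20, 0.330 and 0 per 1000. The members' reads in the >3-division library were 1.22 times the mean of the other 3 libraries at the median. This was 0.934 times for eligible clusters between 20% and 80% in control and 1.13 times for all eligible clusters. In 58.5% of members the >3-division library held more reads than each other library, against 33.0% and 50.2% of those clusters. The contrast varied with the level in control. Under 10% the ratio was 1.34 for members and 1.58 for eligible clusters. From 10% to 20% these were 1.41 and 1.37, and from 20% to 40% 1.21 and 1.18. They were 1.31 and 0.963 from 40% to 60%, 1.12 and 0.828 from 60% to 80%, and 1.67 and 0.751 above, with 1 member. Beyond the alternative weights given above, the part of depth in the margins was not tested.

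Beyond the clusters the rise was mostly absent. The choice used the levels inside and not those of the flanks. A smaller rise outside thus follows in part from the choice and does not mark an edge of the rise. Inside members the mean level with equal weight per CpG was 44.7%, 45.2%, 45.3% and 56.3%. At CpGs 101 to 300 bp outside, measured around 76 members, the means were 46.4%, 46.9%, 46.5% and 46.9%. At 601 to 1000 bp, around 40 members, they were 38.6%, 40.0%, 38.6% and 37.3%. Around eligible clusters between 20% and 80% in control, the >3-division mean at 101 to 300 bp was 50.1% and the control mean 58.1%. The lower level that the >3-division library showed there was thus not seen in the mean around members. Of 98 members with flanking CpGs within 1 kb, 37 had flanks highest in the >3-division library (37.8%, against 9.67% around eligible clusters between 20% and 80% in control), and 5 by at least 10 points. The Six6 pair was among these 5 through its second member, whose 4 flanking CpGs, the CpGs of the first member, averaged 8.33%, 7.55%, 14.0% and 28.0%. Flanks were not cleared of the CpGs of other members, and 4 members lay within 1 kb of another. Flanks also share the libraries that chose the members, so this too is a description.

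**Figure D5:**
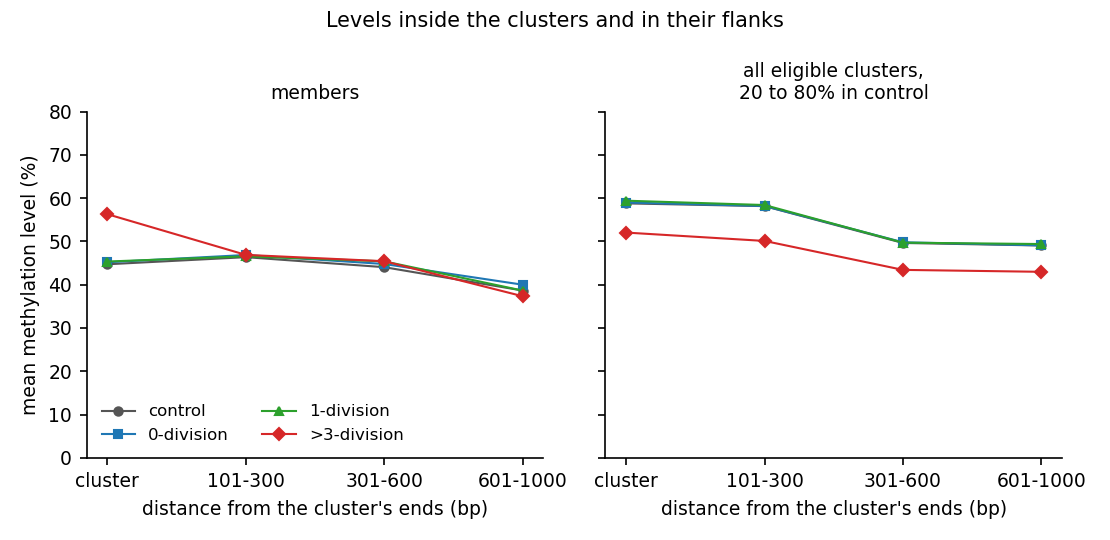
Mean methylation level (percent, y axis) inside the clusters and in 3 distance bands outside them (bp, x axis), by library, for members (left) and for all eligible clusters between 20% and 80% in control (right). In members the >3-division line is at 56.3% inside and 46.9% at 101 to 300 bp, beside 44.7% and 46.4% in control; on the right it is below the other lines throughout.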

How the data were processed

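Measured were 4 RRBS libraries of mouse fibroblasts, 1 per group (control, and doxycycline cohorts of 0, 1 and more than 3 divisions). The deposited tables hold, per CpG, methylated and unmethylated read counts, which the authors made from MspI fragments of 40 to 220 bp, per the labels' protocols. The build was mm9, per the submitters' processing notes. The aligner, the methylation caller and the conversion rate were not given in the sources used here. That the first number of each pair is the methylated count was taken from the values. Clusters, levels, margins and 95% Wilson intervals were computed from these counts with Python 3.11.15, numpy 2.4.6, pandas 2.3.3, scipy 1.17.1 and numba 0.67.0, and the scripts were tested on simulated data. With 1 library per group no test between groups was possible. RefSeq promoters (GRCm38.p6) were placed by CpG spacing: every listed CpG in the window had to fall on a CG, with at least 8 matched and 3 more than at the next best place, or at least 5 between placed neighbours in the same order. Of neighbouring placed pairs, 97.7% were equally spaced in both builds.

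The members and gene lists were chosen with earlier results of these data known. Clusters named are the 10 largest margins, the 5 with most reads in their shallowest library, the 5 with most CpGs, the 5 largest margins among those under 10% in the other 3 libraries, the 3 nearest to the limit on either side, those within 1 kb of a placed start or within 5 kb of a listed gene, and those within 5 kb of each other. Alternatives changed the coverage minimum, the joining distance, the weights, the depth, the summed reads and the margin. Clusters on X were left out of the members.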

Additional observations from a re-analysis of the deposited data

How the results depend on the processing

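No paired analysis was possible because each group had 1 library, and no replicate could be left out. The number of members was 133 to 160 with a coverage minimum of 5 or 20 reads, joining at 50 or 200 bp, or without the most covered CpGs; the 50 bp clusters held 106 of the 159 members again. With equal weight per CpG it was 108, and the median levels of the 0-division and >3-division libraries were 40.8% and 55.2%. With the same CpG weights in every library, an alternative chosen after seeing the data, 94 clusters passed. Thinned to equal depth, 119 clusters passed, of which 84 are among the 159 members, and the control list rose to 142. With at least 50 summed reads, 225 clusters passed beside 166 for control, 167 for the 0-division and 218 for the 1-division library. With at least 200, these were 72, 24, 27 and 38, with medians of 39.7% (0-division) and 54.8% (>3-division). A margin of 15 points left 22, 11, 14 and 18 clusters, with medians of 29.9%, 32.5%, 35.6% and 52.8% in control, 0-division, 1-division and >3-division cells. A margin of 20 points left 4, 0, 3 and 0, a median margin of 21.1 points and a 0-division median of 40.2%. With Wilson intervals apart, 102, 40, 43 and 62 remained. These last counts are smaller by the construction of the stricter rules.

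Among named members, the 4930412O13Rik cluster broke into pieces with joining at 50 bp. The piece that overlapped it most had a margin of -8.75 points and left out the CpGs from 9802970 to 9802987. The margin of the whole cluster was -3.12 points with equal weight and -1.84 points when thinned. With joining at 200 bp, which adds neighbouring CpGs to a cluster, margins became -0.128 points on chromosome 5 at 111848218, -4.21 points at Lin7b and -4.92 points on chromosome 14 at 55062689, and fell to 11.4 points on chromosome 8 at 74556617, 11.1 points on chromosome 1 at 174322515, 6.49 points at Agbl2, 6.48 points at Marveld2, 5.05 points on chromosome 18 at 7002304, 4.39 points at Glis1 and 3.89 points at Hic1. Beyond what the settings themselves add or leave out, the cause was not tested. Depth limits single margins: at 100 to 200 reads a margin of 10 points is close to its counting error.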

Other observations

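The X chromosome, which the choice of members left out, held 3313 clusters with the same coverage. A margin of at least 10 points was held by control in 1, by 0-division cells in 15, by 1-division cells in 11 and by >3-division cells in 1, and 221 were at least 10 points lowest in the >3-division library. The single X cluster with the >3-division library highest, from 11728983 to 11729084 on mm9, held 16 CpGs. From control to >3-division cells it read 40.4%, 38.0%, 38.0% and 54.8%. Its margin was 14.4 points, or 10.6 points when CpGs counted equally. These counts were not compared by a test.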
